A study of Mus musculus with 20 samples.

Results

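The growth hormone and IGF axis of the liver was followed through 10 genes, namely Ghr, Stat5b, Socs2, Cish, Igf1, Igfals, Igfbp1, Igfbp2, Igfbp3 and Igfbp4. They were the rows of the expression table that carry these gene symbols, 10 of 45306 genes, and the rule itself used no measured value. Liver RNA of 20 mice was sequenced, as 1 library from each animal, in 4 groups of 5. Control mice were wild type and unexposed, CE mice were wild type and cold exposed, Sirt2-/- mice were knockout and unexposed, and Sirt2-/-/CE mice were knockout and cold exposed. All mice were on a C57BL/6 background. They were divided into groups at 5 weeks of age, and cold exposure (CE) meant 4 °C for 3 h per day over 3 weeks. The knockout was made with CRISPR/Cas9 against exons 5 to 7 of Sirt2, a protein deacetylase, so it affects the whole body and not the liver alone. The sex of the mice was not given beyond being the same. The Y-linked gene Ddx3y lay between 5.30 and 15.9 FPKM (the unit of the authors, fragments scaled to gene length and depth) in the 20 mice, while Xist, which is transcribed from the inactive X of females, reached at most 0.0906 FPKM, the pattern of males.

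Growth hormone from the pituitary binds its receptor Ghr on hepatocytes, and the kinase Jak2 then phosphorylates Stat5b, which enters the nucleus and switches on Igf1, Igfals, Socs2 and Cish. The products of Socs2 and Cish damp the signal, IGF1 leaves the liver for the blood, and the IGF binding proteins hold it there, with Igfals building the large complex around IGFBP3. The hormone is released in pulses, and in rodents the pattern of its pulses also sets which liver genes are male-type or female-type. Igfbp1 stands somewhat apart, because insulin represses it and fasting and stress hormones raise it.

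The start regions of the genes were read for the letters by which these signals are known to act. RefSeq promoter windows (GRCm38.p6) were found for 9 of the 10 members, 14 windows in all, and Socs2 had none. The motif TTCNNNGAA, the form of site that STAT5 binds, was sought in the 250 bases before each start and reads the same on both strands. It was present in 2 of the 14 windows, both of Igfals, and in 7.02% of all 32851 windows. CAAAACA or its reverse complement TGTTTTG, the core of the insulin response element, was present in 1 of the 14, that of Igfbp1, and in 5.56% of all windows. The matches do not overlap, and they describe letters, not sites shown to be bound. Sequence farther from the starts was not read, so a window without a match does not mean that its gene lacks such a site. Every member window with a match is shown, and the windows end where an annotated exon begins. Capitals mark the motif, which starts 108 bases before the Igfbp1 start, and 236 and 58 bases before 2 alternative starts of Igfals.
Igfbp1, chr11:7197537-7197781, forward strand: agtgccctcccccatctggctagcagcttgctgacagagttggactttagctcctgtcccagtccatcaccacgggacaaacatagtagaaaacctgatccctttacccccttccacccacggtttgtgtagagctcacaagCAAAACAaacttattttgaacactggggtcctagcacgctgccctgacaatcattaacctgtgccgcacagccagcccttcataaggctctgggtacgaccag
Igfals, chr17:24877594-24877655, forward strand: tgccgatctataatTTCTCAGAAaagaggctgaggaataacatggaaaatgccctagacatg
Igfals, chr17:24877981-24878214, forward strand: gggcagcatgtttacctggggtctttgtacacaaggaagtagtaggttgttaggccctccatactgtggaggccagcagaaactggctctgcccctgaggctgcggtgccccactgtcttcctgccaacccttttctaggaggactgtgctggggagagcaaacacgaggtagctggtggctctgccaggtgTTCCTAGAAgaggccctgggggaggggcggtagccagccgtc

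Each library held 35499796 to 53917339 counts. Sirt2 itself was at 40.2 to 56.2 CPM (counts scaled to library size, by edgeR's TMM method) in the 10 wild-type mice and at 16.9 to 27.5 CPM in the 10 knockout mice, without overlap. Its log2 fold change between genotypes, averaged over both treatments, was -1.03 (SE 0.10, adjusted p = 5.75e-05, edgeR's quasi-likelihood test). In each knockout mouse at least 708 counts remained on the gene, whose deposited count does not separate the targeted exons from the others. Some libraries stood apart. A clock score (mean centred log2 level of Dbp, Tef, Per3, Ciart, Nr1d2, less that of Arntl, Npas2, Clock) was -4.52 to -6.48 in CE mouse 9, Sirt2-/- mice 14 and 15 and Sirt2-/-/CE mouse 19, against -0.81 to 3.36 in the other 16. Its range was 1.33 to 3.36 in Control mice, and with 1 exception (CE mouse 8) the other cold-exposed mice were below all Control mice. Of 13 clock genes edgeR called 0, with 3 at an unadjusted p under 0.05 for CE against Control (Arntl, Clock and Cry1, all higher in CE; 6 without the 4 mice of low score) and 3 for Sirt2-/- against Control (0 without them), beside 10.7% and 14.9% of all genes. DESeq2 called Arntl in both comparisons and Cry1 for cold averaged over genotypes, and limma voom called Clock for CE against Control. The part of the clock genes in the values that follow was not tested, except where the score is named as a covariate. In Control mouse 3 and Sirt2-/-/CE mouse 20, the female-type liver genes were high and the male-type genes low, as described further on. Markers of hepatocytes summed to at least 42420 FPKM in each mouse, and those of pancreas and muscle to at most 0.845 and 0.0639 FPKM.

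No member of the axis passed the test in any comparison. The test was edgeR's on 15616 genes, and a gene was called when its p adjusted over all of them was under 0.05. Between CE and Control, 0 of 10 members were called against 0.00640% of all genes tested, and between Sirt2-/- and Control 0 of 10 against 0.890%. Between Sirt2-/-/CE and Sirt2-/- the count was 0 of 10 against 0%, and between Sirt2-/-/CE and CE it was 0 of 10 against 0.0128%. The interaction of genotype and cold gave 0 of 10 against 0%, genotype averaged over treatments 0 of 10 against 0.186%, and cold averaged over genotypes 0 of 10 against 0%. A count of 0 among 10 is near these backgrounds. DESeq2 and limma voom also called 0 members in each comparison, where their shares over all genes reached 3.97% and 5.80%, both in Sirt2-/- against Control. In that comparison the background itself was unstable, since the 139 genes called by edgeR became 5 to 387 when single mice were left out, and 0 with the clock score as a covariate or without the 4 mice of low score. At an unadjusted p under 0.05, edgeR and DESeq2 each counted only Igf1, for genotype averaged over treatments, where 13.8% of all genes lay under that level by edgeR. Limma voom counted 3 members for that comparison (Socs2, Igfbp3 and Igfbp4), 1 for Sirt2-/- against Control (Socs2), and 1 each for Sirt2-/-/CE against Sirt2-/- and for cold averaged over genotypes (both Stat5b). Over all genes the shares by limma voom in these 4 comparisons were 18.9%, 23.1%, 6.44% and 14.1%. The lowest adjusted p of a member by edgeR was 0.317, for Igf1 between genotypes averaged over treatments, and over all settings it was 0.055, for Socs2 by limma voom in Sirt2-/- against Control.

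**Figure D1:**
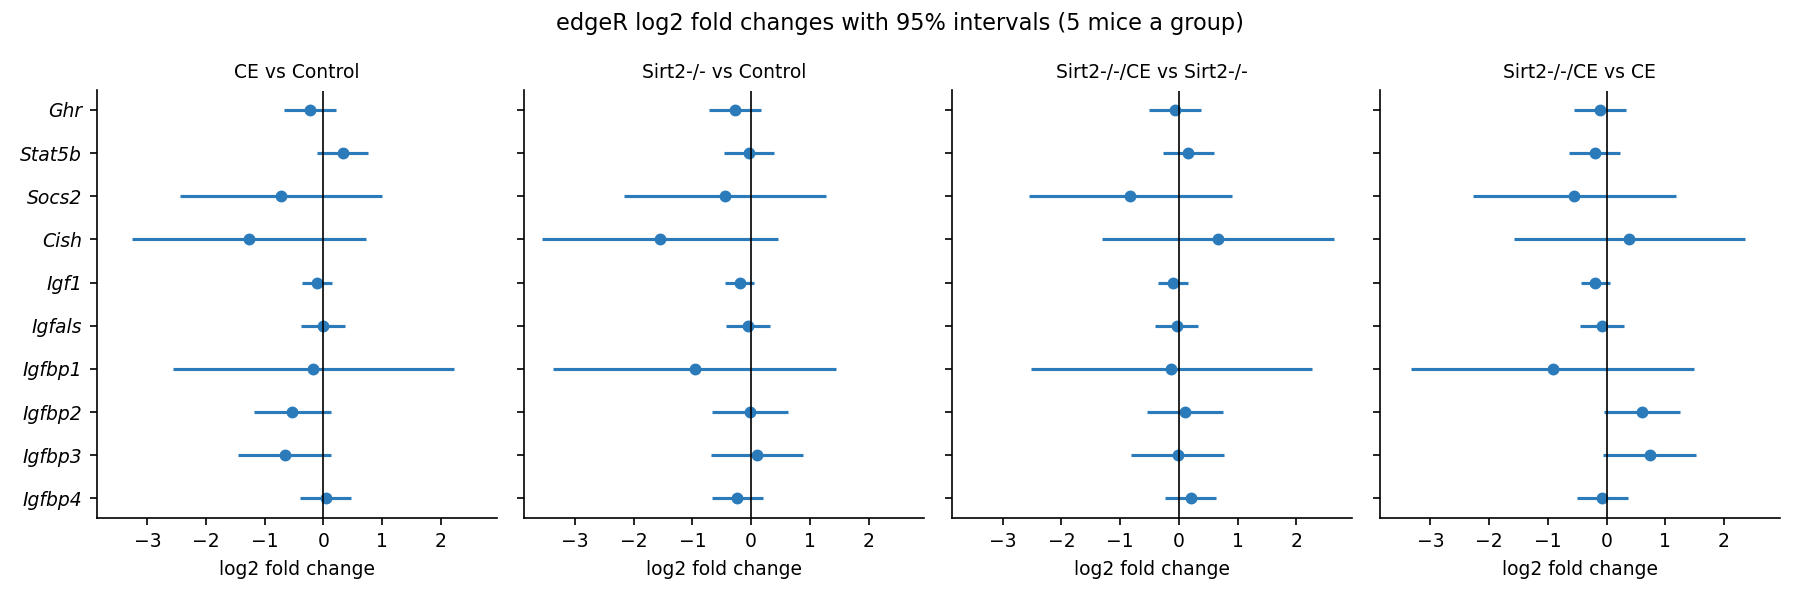
The edgeR log2 fold change of each member (horizontal axis, point) with its 95% interval (line) in the 4 comparisons of pairs of groups, with 5 mice in each group. Every interval includes 0, and those of Socs2, Cish and Igfbp1 are the widest.

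The medians of the fold changes of the members were near 0 and mostly below it. The median log2 fold change of the 10 was -0.20 for CE against Control, where 8 members were lower and 2 higher, and -0.22 for Sirt2-/- against Control, where 9 were lower and 1 higher. It was -0.03 for Sirt2-/-/CE against Sirt2-/- and -0.09 for Sirt2-/-/CE against CE. Over all genes tested the 4 medians lay between -0.01 and 0.02. The comparisons share groups of mice, and no member in these counts passed the test.

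What set the members apart from each other was the spread between mice of the same group. The SD of log2 CPM within groups, pooled over the 4 groups, was 2.18 for Igfbp1, which is larger than in 99.5% of the genes tested. It was 1.79 for Cish and 1.38 for Socs2, larger than in 99.0% and 96.6% of the genes. At the other end stood Igf1, with an SD of 0.15, and only 3.06% of the genes varied less. Ghr, Stat5b, Igfals and Igfbp4 had SDs of 0.36, 0.35, 0.29 and 0.34, below the median of 0.43 over all genes, while Igfbp2 and Igfbp3 lay above it with 0.53 and 0.65. Igfbp1 was not a rare transcript, with 215 to 22743 counts in a mouse.

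**Figure D2:**
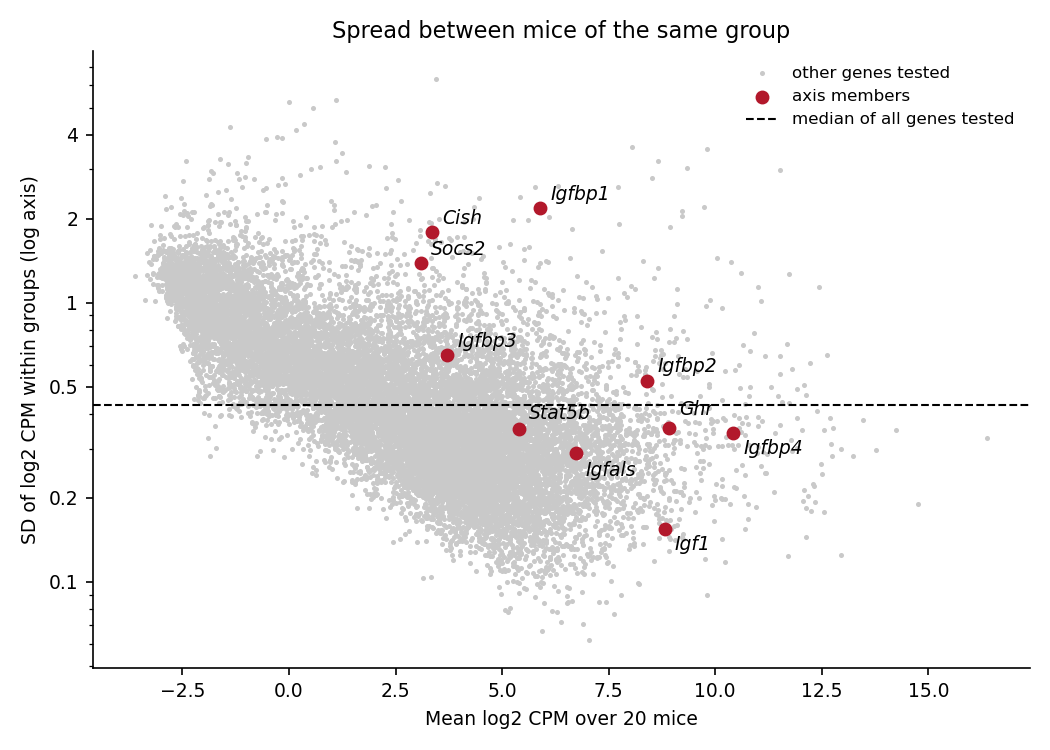
The SD of log2 CPM between mice of the same group (vertical, log axis) against the mean log2 CPM over 20 mice (horizontal) for each of 15616 genes (grey) and the 10 members (red), with the median SD of 0.43 dashed. Igfbp1, Cish and Socs2 lie high among genes of similar level, and Igf1 low.

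The order of the levels, compared per length in FPKM over 20 mice, was Igfbp4, Igfbp2, Ghr, Igf1, Igfbp1, Igfals, Stat5b, Cish, Socs2 and Igfbp3. Igfbp4 had a mean of 348 ± 61.5 FPKM (SD, n = 20) and Igfbp3 of 5.71 ± 2.57 FPKM. Only 2 steps between neighbours in this order were larger than the SD of their difference over mice, namely Igfbp2 above Ghr, in 19 of 20 mice, and Igfals above Stat5b, in 20 of 20. The other neighbours did not differ beyond that SD. Igf1 had a mean of 125 ± 15.5 FPKM. Igfbp3, whose protein carries most of the IGF1 in blood, had the lowest mean of the 10, though Socs2, next in the order, was above it in only 6 of 20 mice.

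Ghr (ENSMUSG00000055737, chromosome 15, 3317760 to 3583492, reverse strand), the growth hormone receptor, was at 648, 638, 553, 508 and 493.1 CPM in Control mice and at 566, 496, 408, 534 and 411 CPM in CE mice. Sirt2-/- mice had 594.5, 612.5, 545, 246 and 347 CPM, and Sirt2-/-/CE mice 336, 528.5, 467, 539 and 369 CPM. The groups overlapped, and the lowest values lay in single knockout mice rather than in a whole group. The log2 fold change of Sirt2-/- against Control was -0.28 (SE 0.21, 95% interval -0.72 to 0.17, adjusted p = 0.58, edgeR), and that between genotypes averaged over treatments was -0.19 (SE 0.15, adjusted p = 0.61). The lowest Sirt2-/- values were those of mice 14 and 15, both with a low clock score, and without mouse 14 the values were -0.11 for both comparisons. Without the 4 mice of low score, Sirt2-/- against Control was 0.04. The part of the clock in these values was not tested.

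Stat5b (ENSMUSG00000020919, chromosome 11, 100780731 to 100850724, reverse strand), the transcription factor that carries the signal, was the only member in which 2 groups did not overlap. Control mice had 40.9, 41.0, 43.5, 39.8 and 33.9 CPM. CE mice had 50.6, 47.2, 53.0, 53.3 and 45.3 CPM, each above the highest Control mouse. Among the 10 members this was 1 gene without overlap between CE and Control, set against 3.04% of all genes tested. The counts without overlap were 0 of 10 for Sirt2-/- against Control (3.61% of all genes), for Sirt2-/-/CE against Sirt2-/- (0.743%) and for Sirt2-/-/CE against CE (1.22%). The difference between CE and Control was 0.32 on the log2 scale (SE 0.21, 95% interval -0.11 to 0.76) and did not pass edgeR's test (adjusted p = 0.63). In the knockouts the separation was not seen, since Sirt2-/- mice lay between 31.1 and 48.0 CPM and Sirt2-/-/CE mice between 21.5 and 63.8 CPM, although the interaction was not called either (adjusted p = 0.93). Cold averaged over genotypes gave 0.24 (SE 0.15, adjusted p = 0.63 by edgeR and 0.12 by limma voom), and 0.15 without Sirt2-/-/CE mouse 19. Stat5b shares a stretch of 440 bases at 96.4% identity with its paralog Stat5a, and how the counting treated reads that match both is not known.

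Socs2 (ENSMUSG00000020027, chromosome 10, 95385362 to 95417180, reverse strand), a suppressor of cytokine signaling that is induced by growth hormone and dampens its receptor, was at 11.2, 8.47, 20.1, 35.5 and 21.6 CPM in Control mice. CE mice had 9.92, 2.81, 20.1, 14.6 and 11.1 CPM. Sirt2-/- mice had 1.91, 2.13, 4.02, 56.6 and 6.33 CPM, and Sirt2-/-/CE mice 2.48, 2.73, 2.93, 9.56 and 22.4 CPM. In Sirt2-/- mice, 4 values lay below the lowest Control value and 1, that of mouse 14, above the highest. With all mice, the log2 fold change of Sirt2-/- against Control was -0.45 (SE 0.82, 95% interval -2.16 to 1.27, adjusted p = 0.85, edgeR). It was -2.43 without Sirt2-/- mouse 14 (adjusted p = 0.13) and -0.11 without Control mouse 4, and limma voom, which gives less weight to libraries that deviate, put it at -2.17 with an adjusted p of 0.055. The difference between genotypes averaged over treatments went from -0.50 (adjusted p = 0.76, edgeR) to -1.49 without mouse 14 (adjusted p = 0.21), to -1.45 by limma voom (adjusted p = 0.09) and, the other way, to -0.33 without Control mouse 4. CE against Control gave -0.73 (SE 0.83, adjusted p = 0.83), and -0.39 without Control mouse 4. None of these passed the threshold. Mouse 14 also had a clock score of -5.72, and the part of that in its Socs2 value was not tested. Socs2 matches the gene models Gm9847 (599 bases at 99.5% identity) and Gm8000 closely, so a share of its reads may have been counted there.

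Cish (ENSMUSG00000032578, chromosome 9, 107296026 to 107302784, forward strand), the other feedback inhibitor, varied widely within each group, by 9.37-fold or more between the lowest and highest mouse. Control mice had 6.03, 6.91, 42.7, 53.1 and 56.5 CPM, with 3 mice high and 2 low. CE mice had 45.9, 2.73, 11.1, 6.67 and 1.92 CPM, with 1 high. Sirt2-/- mice, at 6.61, 1.33, 12.2, 19.6 and 16.8 CPM, had none above 19.6, and Sirt2-/-/CE mice, at 4.84, 1.94, 2.54, 38.5 and 41.6 CPM, had 2. The log2 fold change of CE against Control was -1.27 (SE 0.96, adjusted p = 0.69, edgeR), and -2.54 without CE mouse 6 (adjusted p = 0.365). That of Sirt2-/- against Control was -1.55 (SE 0.96, adjusted p = 0.48). The interaction was 1.93 (SE 1.35, 95% interval -0.87 to 4.74, adjusted p = 0.74), and 3.20 without CE mouse 6. Of the exon bases of Cish, 740 of 6419 also lie in exons of Gm17040 and Gm17041 on the other strand, and whether strand was used in the counting is not stated.

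**Figure D3:**
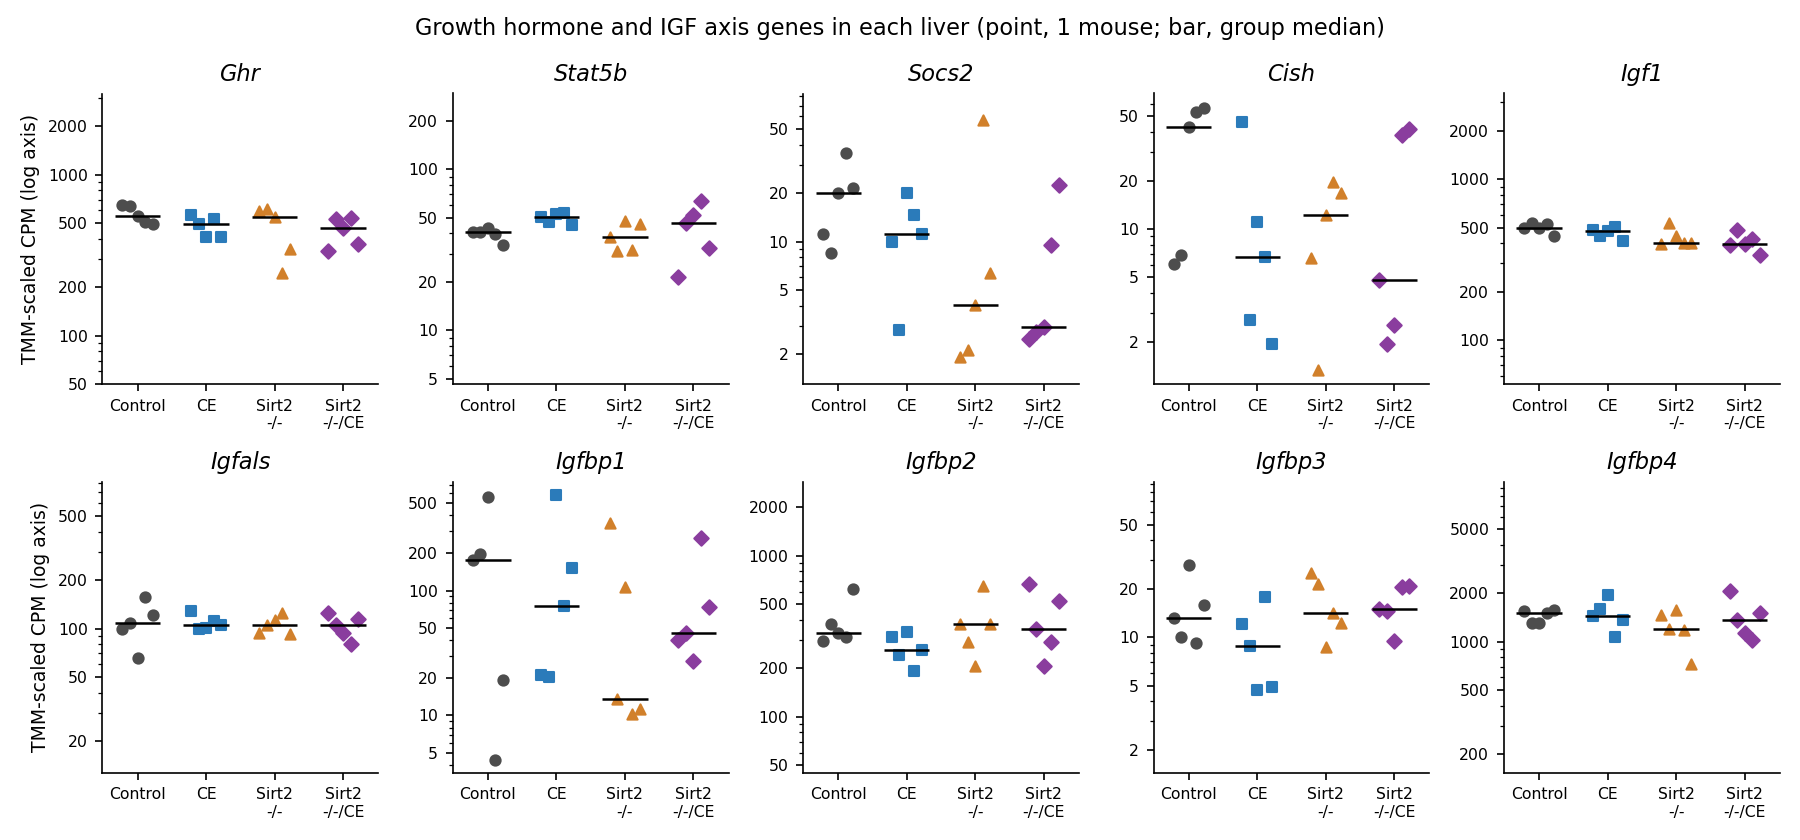
TMM-scaled CPM (log axis) of the 10 members in each of 20 livers, by group, with the group median as a bar. Igf1 is tight in all groups and Igfals in all but Control, Igfbp1, Cish and Socs2 spread widely within groups, and Stat5b shows all 5 CE mice above all 5 Control mice.

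Igf1 (ENSMUSG00000020053, chromosome 10, 87858265 to 87937042, forward strand), the hormone itself, was steady. It was at 497, 535, 500.1, 529 and 444 CPM in Control mice and at 482, 444, 476, 508 and 414 CPM in CE mice. Sirt2-/- mice had 396, 537, 446, 401 and 404 CPM, and Sirt2-/-/CE mice 389, 486, 394.5, 428 and 338 CPM. The highest mouse stood 1.59-fold above the lowest. Of the Sirt2-/- mice, 3 were below all Control mice and 1, mouse 12, was the highest of the 20. The log2 fold change between genotypes averaged over treatments was -0.19 (SE 0.09, 95% interval -0.37 to -0.02, adjusted p = 0.32, edgeR), with -0.20 in unexposed mice (adjusted p = 0.47) and -0.19 under cold (adjusted p = 0.92). Cold averaged over genotypes gave -0.11 (SE 0.09, adjusted p = 0.75, edgeR), and -0.06 without Sirt2-/- mouse 12. On the FPKM of the authors the same difference was 0.13 by limma, so its direction depended on the measure and fit used. The FPKM of Igf1 did not keep a fixed ratio to its CPM. Control mouse 1 had 497 CPM and 119.5 FPKM, and CE mouse 10 had 414 CPM and 147 FPKM. The reason was not tested.

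Igfals (ENSMUSG00000046070, chromosome 17, 24865997 to 24882010, forward strand), which encodes the acid labile subunit of the large IGF complex, had close means in the 4 groups. They were 110 ± 33.6 CPM in Control, 109 ± 11.9 in CE, 106 ± 13.1 in Sirt2-/- and 103 ± 17.5 in Sirt2-/-/CE mice (SD, n = 5 each). Its extremes were both Control mice, at 65.4 CPM in mouse 3 and 158 CPM in mouse 4. The difference between genotypes averaged over treatments was -0.07 on the log2 scale (SE 0.13, 95% interval -0.33 to 0.20, adjusted p = 0.87, edgeR), and its sign was not stable. It was 0.04 with scaling by library size alone, 0.07 on FPKM with limma, 0.02 without Control mouse 4 and -0.14 without Control mouse 3.

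Igfbp1 (ENSMUSG00000020429, chromosome 11, 7197782 to 7202546, forward strand), whose window with the CAAAACA letters is printed above, ranged over 130-fold. Control mice had 175, 196, 561, 4.44 and 19.1 CPM, and CE mice 20.9, 20.3, 579, 75.8 and 150.2 CPM. Sirt2-/- mice had 349, 13.5, 106, 10.3 and 11.3 CPM, and Sirt2-/-/CE mice 40.05, 45.5, 27.2, 261 and 73.3 CPM. Each group thus held mice at or above 261 CPM and mice at or below 27.2 CPM, and the Control group alone held both the lowest value of the 20, in mouse 4, and the next to highest, in mouse 3. The difference between genotypes averaged over treatments was -0.94 on the log2 scale (SE 0.82, 95% interval -2.65 to 0.76, adjusted p = 0.65, edgeR). It was -0.28 without CE mouse 8, -0.47 without Control mouse 3, -1.68 without Sirt2-/- mouse 11 and -0.08 with the clock score as a covariate. Some genes had a like pattern. Over 20 mice, the 5 tested genes of at least 1 FPKM with the highest Pearson r of log2 CPM with Igfbp1 were 1810055G02Rik and Slc38a2 (both 0.81), Tnfrsf1b (0.81), Ddit4 (0.79) and Cebpb (0.79). For Igf1, the same search gave Zbtb11 (0.81), Spata2 (0.76), Abhd13 (0.75), Strbp (0.75) and Rb1cc1 (0.74). These 10 were the top of 15616 genes by that measure, and no test was made of them.

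Igfbp2 (ENSMUSG00000039323, chromosome 1, 72824503 to 72852474, forward strand), a binding protein that the liver makes in quantity, was at 295, 377, 331, 312 and 624 CPM in Control and at 313, 243, 335, 193 and 260 CPM in CE mice. Sirt2-/- mice had 376, 292, 208, 652 and 379 CPM, and Sirt2-/-/CE mice 669.5, 350, 208, 292 and 526.1 CPM. Values over 500 CPM occurred in each group except CE. CE against Control gave a log2 fold change of -0.53 (SE 0.31, adjusted p = 0.59, edgeR), and of -0.29 without Control mouse 5. Sirt2-/-/CE against CE gave 0.61 (SE 0.31, 95% interval -0.04 to 1.26, adjusted p = 0.84), but 0.35 without Sirt2-/-/CE mouse 16 and 0.16 by limma voom. The interaction was 0.63 (SE 0.44, adjusted p = 0.74), and 0.38 without that mouse.

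Igfbp3 (ENSMUSG00000020427, chromosome 11, 7206086 to 7213923, reverse strand), the neighbour of Igfbp1 and in the liver largely a product of the non-parenchymal cells, was at 13.1, 10.1, 28.2, 9.23 and 15.8 CPM in Control mice. CE mice had 12.02, 8.77, 4.70, 17.8 and 4.88 CPM, and 3 of them lay below all Control mice. Sirt2-/- mice had 25.1, 21.4, 8.66, 14.1 and 12.3 CPM, and Sirt2-/-/CE mice 15.1, 14.5, 9.50, 20.6 and 20.9 CPM. For CE against Control the log2 fold change was -0.66 (SE 0.38, adjusted p = 0.58, edgeR), with -0.32 without Control mouse 3 and -1.01 without CE mouse 9. For Sirt2-/-/CE against CE it was 0.74 (SE 0.38, 95% interval -0.05 to 1.53, adjusted p = 0.84). The 5 markers of sinusoidal endothelial cells (Stab2, Pecam1, Clec4g, Lyve1 and Kdr) moved alongside it. Their summed level was 14.2 to 70.5 FPKM in Control, 9.26 to 47.5 in CE, 30.0 to 76.6 in Sirt2-/- and 52.4 to 80.3 in Sirt2-/-/CE mice, so that Sirt2-/-/CE and CE did not overlap in it. Between these groups all 5 markers were higher at an unadjusted p under 0.05 and none was called, with a median log2 fold change of 1.29. Of the markers of other cell types none was called there. All 5 Kupffer cell markers lay above 0 in log2 fold change (3 with an unadjusted p under 0.05, median 0.79), as did 4 of 5 stellate cell markers (1 at that level, median over all of them 0.67). Of 4 cholangiocyte markers 3 were above 0 and 1, Sox9, below it at that level (median 0.08), and of 4 lymphocyte markers 1 was above 0 and none at that level (median -0.28). Of 8 hepatocyte markers 3 were above 0 and 5 below it, with Serpina1a (-0.34) lower at that level (median over all of them -0.08). Of 4 adipocyte markers only Fabp4, which endothelial cells also express, was tested, and it had a log2 fold change of 1.15 at an unadjusted p under 0.05. Over all genes 6.09% lay under that level. Between genotypes averaged over treatments, all 5 endothelial and all 5 Kupffer cell markers were at an unadjusted p under 0.05 (edgeR, medians 0.80 and 0.60, against 13.8% of all genes). Fabp4 was at that level too, with 0.82. EdgeR called none of them, DESeq2 called Lyve1 and Fabp4, and limma voom called Lyve1, Pecam1, Adgre1, Clec4f and Vsig4. The fold change of Igfbp3 itself in that comparison was 0.42 on the log2 scale (SE 0.27, adjusted p = 0.52, edgeR). The summed Kupffer cell markers were at 31.96 to 145.6 FPKM in CE and 109.8 to 150.4 FPKM in Sirt2-/-/CE mice, and the stellate cell markers at 9.42 to 58.7 and 49.3 to 66.0 FPKM. Across mice, Igfbp3 and the mean log2 CPM of the endothelial markers had r = 0.75 and rho = 0.69. In bulk liver, fewer cells of a type and less RNA per cell cannot be told apart, and the part of these cell types in the Igfbp3 values was not tested.

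Igfbp4 (ENSMUSG00000017493, chromosome 11, 99041244 to 99054392, forward strand) had the highest mean FPKM of the members and lay above Igfbp2, the next, in 16 of 20 mice. Its group means were 1452 ± 132 CPM in Control, 1487 ± 326 in CE, 1233 ± 328 in Sirt2-/- and 1416 ± 408 in Sirt2-/-/CE mice (SD, n = 5 each). The lowest mouse was Sirt2-/- mouse 15, at 732 CPM, and the highest Sirt2-/-/CE mouse 16, at 2063 CPM. For Sirt2-/- against Control the log2 fold change was -0.24 (SE 0.21, adjusted p = 0.65, edgeR), -0.10 without Sirt2-/- mouse 15, and 0.12 once the clock score was a covariate. Among the summed FPKM of Igfbp1 to Igfbp4, Igfbp4 made up 50.9% ± 9.63 and Igfbp2 37.6% ± 10.8 (SD, n = 20), Igfbp1 10.7% ± 11.5 and Igfbp3 0.834% ± 0.372. The share of Igfbp1 ran from 0.45% to 37.7% between mice, while the group means ran from 7.91% to 14.3%.

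Which members moved together from mouse to mouse was asked in 8 pairs, each over 20 mice on log2 CPM, with permutation p values adjusted over the 8. Socs2 and Cish, both early targets of the hormone, moved together, with r = 0.69 (adjusted permutation p = 0.00688) and rho = 0.68 (adjusted p = 0.00652). Their r was 0.74 without the 2 mice farthest from the median of Socs2, and 0.67 after each group was centred on its mean (adjusted p = 0.0262). Ghr and Igf1 had r = 0.65 (adjusted permutation p = 0.00688) and rho = 0.67 (adjusted p = 0.00652), and r = 0.645 without the 2 mice farthest in Ghr. After centring on the group means r was 0.57 and no longer passed (adjusted p = 0.114). The other 6 pairs did not pass: Stat5b with Igf1 (r = 0.25, adjusted p = 0.77), Igf1 with Igfals (0.04, 0.94), Igf1 with Igfbp3 (-0.07, 0.94), Socs2 with Igf1 (0.07, 0.94), Igfbp1 with Igfbp2 (-0.18, 0.91) and Igfbp1 with Igf1 (0.02, 0.94). Whether these r differ from those of the pairs that passed was not tested.

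Further relations, 65 in all with the 8, were computed after the data had been seen, for every pair of members and for each member with the endothelial markers and the clock score. Adjusted over the 65, 6 had an adjusted permutation p of r under 0.05. Beside the pairs Socs2 with Cish and Ghr with Igf1, they were Igfbp3 with the endothelial markers (adjusted p = 0.00585 for r and 0.0353 for rho, r = 0.63 without the 2 mice farthest in Igfbp3), Stat5b with Igfbp2 (r = -0.74, rho = -0.63, adjusted p = 0.00585 and 0.0681), Igfbp4 with the clock score (r = 0.71, rho = 0.49, adjusted p = 0.00758 and 0.237) and Igfals with Igfbp1 (r = -0.63, rho = -0.48, adjusted p = 0.024 and 0.237). Without the 2 mice farthest in the first measure, r was -0.72 for Stat5b with Igfbp2, 0.69 for Igfbp4 with the clock score and -0.39 for Igfals with Igfbp1. The last of these rests on those mice, and after centring on the group means none of the 6 passed when adjusted over the 65 (adjusted p from 0.0792 to 0.0858 for the 4 added relations and Socs2 with Cish, and 0.205 for Ghr with Igf1). The centred r were about as large as before, at -0.70 for Stat5b with Igfbp2, 0.74 for Igfbp4 with the clock score, -0.66 for Igfals with Igfbp1 and 0.66 for Igfbp3 with the endothelial markers.

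**Figure D4:**
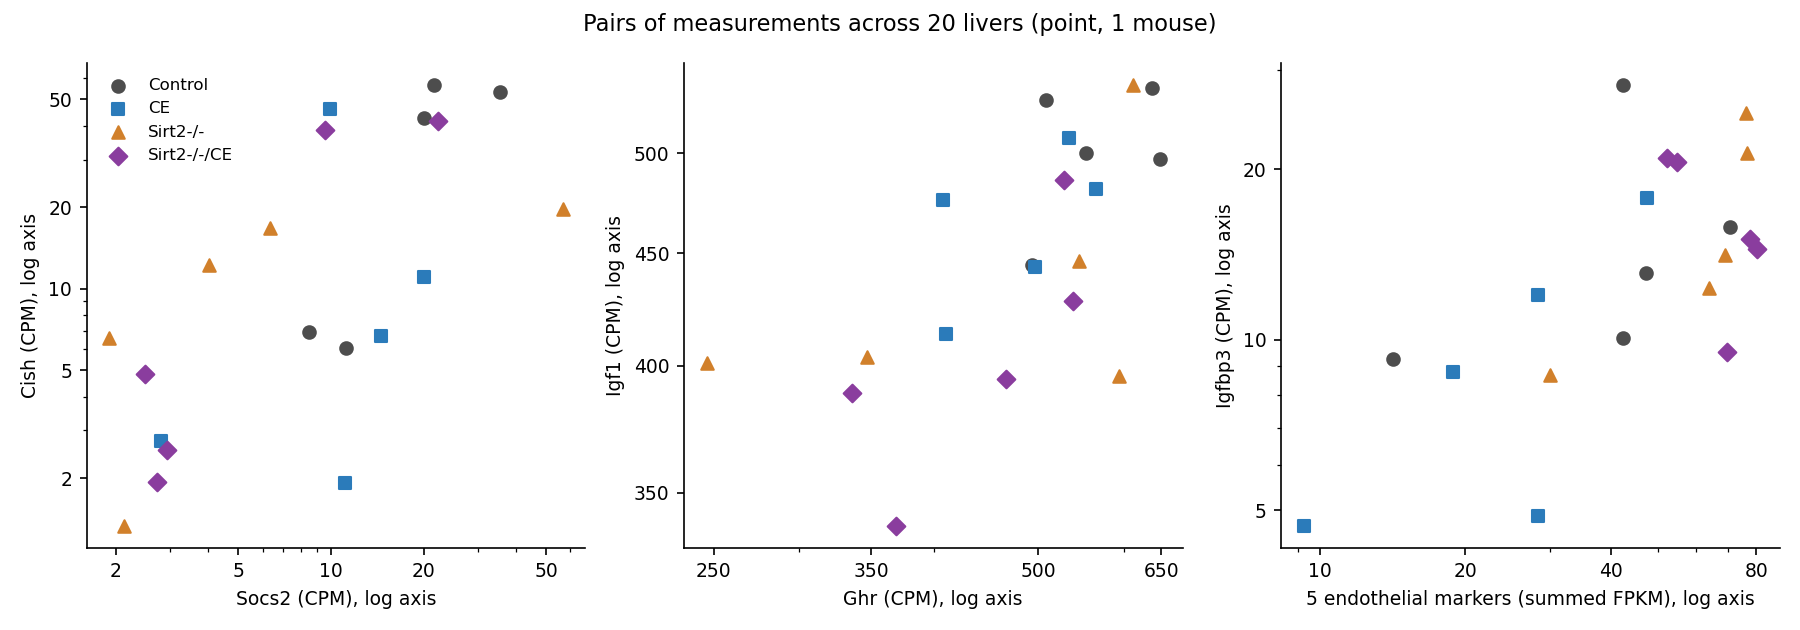
Cish against Socs2 (left), Igf1 against Ghr (middle) and Igfbp3 against the summed FPKM of 5 endothelial markers (right) in 20 livers, each point 1 mouse, on log axes. Mice of different groups mix along the Socs2 and Cish relation, and all 5 Sirt2-/-/CE mice lie at 52.4 FPKM or more of the endothelial markers.

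The genes of the pathway that are not members were examined as one list. Of 26 further genes of hormone signaling, receptors and IGF binding, 23 were tested, and 0 were called in any of the 7 comparisons, by edgeR, DESeq2 or limma voom. At an unadjusted p under 0.05 there were 4 for CE against Control and 1 for Sirt2-/- against Control, 0 for Sirt2-/-/CE against Sirt2-/- and 2 for Sirt2-/-/CE against CE. Over all genes tested, the shares at that level were 10.7%, 14.9%, 7.25% and 6.09% in the same order. Jak2, the kinase on the receptor, had means of 14.4 ± 2.14 CPM in Control, 13.8 ± 1.14 in CE, 12.1 ± 2.75 in Sirt2-/- and 12.3 ± 3.43 in Sirt2-/-/CE mice. Insr, the insulin receptor, had means of 111 ± 32.6, 91.6 ± 5.10, 82.3 ± 23.1 and 76.0 ± 26.9 CPM in the same order. Socs3, which answers inflammatory signals, was at 48.5 CPM in Control mouse 3 and at no more than 23.6 CPM in the other 19 mice.

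Stat5a, the paralog of Stat5b, had 7.99, 7.15, 5.18, 8.84 and 4.93 CPM in Control and 10.9, 13.8, 6.22, 11.3 and 11.6 CPM in CE mice. CE mice were higher in 4 of 5 than all Control mice, with a difference of 0.66 on the log2 scale (SE 0.23, adjusted p = 0.29 by edgeR and 0.06 by limma voom). The receptor of IGF1 itself, Igf1r, was barely detected. Its levels were at most 0.869 CPM, with 0 counts in 3 of 5 CE mice, and its fitted differences of -1.93 between CE and Control and 1.995 between Sirt2-/-/CE and CE (adjusted p = 0.44 and 0.75, edgeR) rest on 0 to 39 counts per mouse. Igf2, a hormone mainly of fetal life, was at most 1.05 CPM.

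Whether the sex-type genes of the liver, which answer to the pulses of growth hormone, differed between groups was examined with 14 male-type and 13 female-type genes. EdgeR called none of the 14 and 9 tested genes of these lists in any comparison. At an unadjusted p under 0.05, 5 of the 9 female-type genes were counted for CE against Control, 2 for Sirt2-/- against Control, 4 for Sirt2-/-/CE against Sirt2-/- and 4 for Sirt2-/-/CE against CE. Without Control mouse 3 and Sirt2-/-/CE mouse 20 these counts were 2, 2, 1 and 0. Of the 14 male-type genes the counts were 1, 1, 1 and 0 with all mice, and 1, 3, 1 and 1 without the 2. The shares over all genes tested were the 10.7%, 14.9%, 7.25% and 6.09% given above with all mice, and 7.02%, 11.4%, 5.05% and 5.07% without the 2. Single female-type genes were called by the other tools, namely Ntrk2 by DESeq2 for Sirt2-/- against Control, and Cyp17a1 by limma voom for CE against Control and by DESeq2 for cold averaged over genotypes. Single mice stood apart. The female-type genes summed to 273 FPKM in Control mouse 3 and 974 FPKM in Sirt2-/-/CE mouse 20, and to no more than 112 FPKM in the other 18 mice. In the same 2 mice the male-type genes summed to 3450 and 1578 FPKM, against 7394 FPKM or more in the others. The genes given next were picked after their values were seen. The female-type Cyp2b13 was at 2.90 FPKM in Control mouse 3 and 85.9 FPKM in Sirt2-/-/CE mouse 20, against at most 0.299 FPKM in the other 18, and Cyp2a4 at 173 and 446 FPKM against at most 67.0 FPKM. The male-type Cyp2d9 was at 229 and 286 FPKM against at least 536 FPKM. Both mice had the Y-linked Ddx3y, at 15.4 and 7.19 FPKM.

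**Figure D5:**
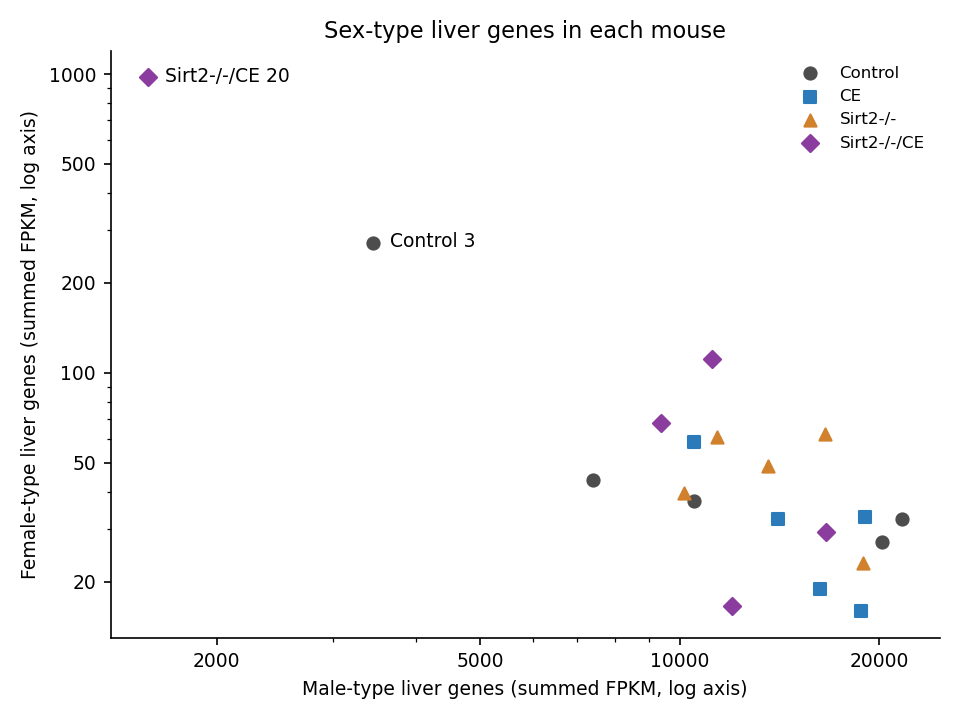
Summed FPKM of 13 female-type liver genes (vertical) against 14 male-type liver genes (horizontal) in 20 mice, on log axes, with the group by colour and shape. Control mouse 3 and Sirt2-/-/CE mouse 20 lie apart from the other 18, with the highest female-type and the lowest male-type sums.

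Some members were at the end of their range in these mice. Igf1 was at 500.1 CPM in Control mouse 3 and at 338 CPM, the lowest of the 20, in Sirt2-/-/CE mouse 20, and Ghr at 553 and 369 CPM. Socs2 was at 20.1 and 22.4 CPM and Cish at 42.7 and 41.6 CPM, among the higher values of both genes. Control mouse 3 also had the lowest Igfals, at 65.4 CPM, the highest Igfbp3, at 28.2 CPM, and an Igfbp1 of 561 CPM. What part the sex-type pattern has in these values was not tested. Without these 2 mice, and likewise without the 4 mice of low clock score, 0 of 10 members were called in each of the 7 comparisons. At an unadjusted p under 0.05 edgeR counted no member in any comparison without the 2 mice, where Igf1 was lost. Without the 4 mice of low score it counted Igfbp3 for CE against Control, Socs2 for Sirt2-/- against Control, Ghr for Sirt2-/-/CE against Sirt2-/- and Igfbp3 for Sirt2-/-/CE against CE, which is 1 of 10 in each, beside 12.2%, 8.02%, 5.39% and 7.81% of all genes. In the same fit it counted 2 of 10 for the interaction (Socs2 and Igfbp2), for genotype averaged over treatments (Socs2 and Igfbp3) and for cold averaged over genotypes (Ghr and Igfbp3), beside 6.44%, 9.96% and 10.3% of all genes. These 2 checks were added after the data had been seen.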

How the data were processed

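Messenger RNA of 20 mouse livers was enriched on oligo(dT) beads, copied from random hexamers and sequenced on an Illumina NovaSeq instrument. The authors deposited 1 table with, per gene and animal, an unnormalized read count and an FPKM value scaled to gene length and depth. The submitters' processing notes name the build mm10. The aligner, the counting tool and its use of strand are not given in the sources used here. The table has 45306 genes, and 9 lines without a gene were left out. Mice were grouped by their labels, whose numbers run over all 20 mice and pair none. Nothing says whether cages or extraction days differed.

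Counts were tested with edgeR 4.0.16 (R 4.3.3) after filterByExpr by group (minimum count 10, minimum total 15), which kept 15616 genes holding 99.94% or more of every library. All 20 mice entered 1 quasi-likelihood fit with group as its term, and p-values were two-sided and adjusted by Benjamini-Hochberg over all genes tested. The SE was the log2 fold change over the square root of F, and intervals used the t quantile. Alternatives were DESeq2 1.42.0, limma 3.58.1 (voom with quality weights, and log2 of FPKM + 1), other scalings and filters, the clock score as a covariate, a fit of only the 2 groups compared, and the removal of each mouse. Log2 CPM used a prior count of 2. Correlations used 100000 permutations, two-sided, and within groups after centring. No 2 libraries agreed within sampling noise (190 pairs, lowest median chi-square over genes 4.4 against 0.455 for equal libraries). The precision is set by the spread between the 5 mice of a group.

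The members and all lists were chosen with earlier results of these data known. Named by rule were all members, Sirt2, genes of other lists called by edgeR (there were none), 6 fixed pathway genes (Jak2, Stat5a, Socs3, Igf1r, Igf2 and Insr), and the 5 genes most like Igf1 and Igfbp1. Sex-type genes were named after their values were seen, Ddx3y and Xist as a check of sex, and marker genes to say what their sums hold. Positions, exons and transcripts came from GENCODE vM21 (GRCm38), near-identical stretches (at least 95% over 150 bases) from BLAST+ 2.17.0, and promoter windows from RefSeq (GRCm38.p6). Motifs in proteins were planned and were not analysed here. Figures were drawn with matplotlib 3.10.9.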

Additional observations from a re-analysis of the deposited data

Results flagged for a closer look

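In 4 groups of 5 mice, 1 mouse lay apart from the rest by the ratio of its gap to the whole range of the group, on the log2 scale. This was so for the male-type gene sum of Sirt2-/-/CE mouse 20, which was lowest (0.757 of the range), for the female-type gene sum of Control mouse 3, which was highest (0.793), for the endothelial marker sum of Sirt2-/- mouse 13, which was lowest (0.807), and for the level of Sirt2 in Sirt2-/-/CE mouse 16, which was highest (0.713). These 4 were among 20 such groups examined. Among 40 groups of member values none was past the limit, and chance flags about 1 in 20 groups.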

How the results depend on the processing

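The count of members called was 0 in all 174 combinations of a comparison and an alternative. Of the log2 fold changes of single genes under alternatives, 658 kept their direction and side of the threshold and 6 turned, the cause of which was not tested. Without the 4 mice of lowest clock score, Ghr in Sirt2-/- against Control was 0.0414. With the clock score as a covariate, Igfbp4 in the same comparison was 0.121. On log2(FPKM + 1), Igf1 for cold averaged over genotypes was 0.127 and Igfals for genotype averaged over treatments 0.0652. Igfals was 0.0424 when scaled by library size only, and -0.136 to 0.0163 with each mouse left out. Centred on the group means, r was 0.574 for Ghr with Igf1 (adjusted permutation p = 0.114), -0.0169 for Igf1 with Igfals, 0.0799 for Igf1 with Igfbp3, -0.328 for Socs2 with Igf1 and -0.0478 for Igfbp1 with Igf1. No paired analysis was possible because the groups share no replicate number. Intervals of Socs2, Cish and Igfbp1 span several log2 units, so differences of moderate size in them were not detectable with 5 mice a group.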

Other observations

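The 10 genes of the fasting and insulin response, the other signal to which Igfbp1 answers, were all tested, and edgeR, DESeq2 and limma voom called 0 in each comparison. At an unadjusted p under 0.05 by edgeR there was 1 for CE against Control, 1 for Sirt2-/- against Control, 1 for Sirt2-/-/CE against Sirt2-/- and 0 for Sirt2-/-/CE against CE. The shares of all genes tested at that level were 10.7%, 14.9%, 7.25% and 6.09% in that order. Their median log2 fold changes were 0.36, -0.07, 0.12 and -0.16 in that order.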
